A study of Mus musculus with 7 samples.

Results

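The genes described here carry glucose and lactate across membranes, break glucose down to pyruvate and lactate, and build, degrade and anchor glycogen, together with a few gluconeogenic steps. They were chosen from a list of 48 such genes as those with a probe set of 1 gene symbol in the deposited array table, and each was read from its brightest such probe set by mean signal over the 7 arrays. That gave 45 of 48 genes, out of 18194 genes with such a probe set in the whole table. Gpi1, Pfkfb1 and Eno1 had no probe set of 1 symbol and are not analysed here. Gapdh was read only from control probe sets, which were not part of the test. Phkg1, the muscle catalytic subunit of phosphorylase kinase, had a mean under the filter on low signal, with signals between 14.2 and 67.7. The other 43 were tested.

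The tissue was brown fat of male C57BL/6J mice aged 3 days. The 4 knockout (KO) arrays came from mice lacking Gyk, the gene of glycerol kinase, and the 3 wild-type (WT) arrays served as the control group; the replicate numbers were 1, 2, 3 and 4 for KO and 1, 3 and 4 for WT. The labels name no treatment, do not say how the KO allele was made, and do not say whether an array held 1 animal or a pool. For KO replicate 1 the genotype stands only in the title and description. Nothing states that each replicate was its own animal. The p-values therefore refer only to the spread among these arrays, which may be technical, and the number of arrays limits the precision.

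Glycerol kinase phosphorylates glycerol to glycerol phosphate, which joins glycolysis at dihydroxyacetone phosphate. Brown fat takes up glucose through facilitative carriers, traps it with hexokinase, and either stores it as glycogen or splits it to pyruvate, which enters mitochondria or leaves as lactate. Most of these steps are shared between isoforms that are typical of different tissues, such as muscle, liver and brain forms of phosphofructokinase or glycogen phosphorylase.

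The values were signal intensities scaled alike on every array, with array medians between 131.5 and 154. Ucp1, the uncoupling protein that defines brown fat, read between 26887 and 37577 on the 7 arrays. The array labelled KO replicate 2 stood apart from the other KO arrays: along principal component 1 (35.3% of the variance) it lay at -13.8, against 33.4 to 35.7 for the other KO arrays and -33.3 to -23.0 for the WT arrays, and the array it correlated with best was WT replicate 1. Xist, the transcript of the inactive X chromosome, read 2757 on that array and 183 to 273 on the others, although all samples are labelled male, while Eif2s3y, a Y-linked gene, read 1252 there and 1210.0 to 1566 elsewhere. The ratio of the 3′ to the 5′ pyruvate carboxylase control probe set, a sign of RNA length, was 5.93 on WT replicate 1 and 5.92 on KO replicate 2, against 3.29 to 3.76 on the other arrays. The other control ratios showed no such gap. For actin they were 1.29 and 1.39 on these arrays, against 1.14 to 1.35 on the others. For Gapdh they were 0.828 and 0.876, against 0.765 to 0.873. Gyk itself was paired with 0 probe sets and could not be used to check the labels. Results are therefore given with all 7 arrays and again without KO replicate 2.

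Among the members, the glucose carrier Slc2a3 rose in KO brown fat, and the liver-type glycogen synthase Gys2 and the phosphatase subunit Ppp1r3b, which brings protein phosphatase to glycogen, fell. These 3 of 43 tested members, or 6.98%, passed an adjusted p of 0.05 (limma, Benjamini-Hochberg over all probe sets), against 1.59% of all 27022 probe sets. Shares over all probe sets also count the fainter probe sets of a gene, whereas members were read from the brightest. Of 13102 genes read from a tested brightest probe set, 242 passed. By direction, 1 member was higher, against 0.951% of all probe sets, and 2 were lower, against 0.644%. The KO and WT arrays did not overlap for 10 of 43 members, or 23.3%, against 14.7% of all probe sets; 4 were higher in KO (7.48% of all probe sets) and 6 lower (7.25%). An unadjusted p under 0.05 was reached by 14 members, or 32.6%, against 16.5% of all probe sets, with 5 higher (7.97%) and 9 lower (8.55%). The median log2 difference, KO minus WT, was -0.11 over the members and 0.00 over all probe sets, with 29 members below 0 and 14 above. The members were listed with earlier results of these data known, so these shares are a description of the list.

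Without KO replicate 2, 12 members passed, or 27.9% of 43, against 7.35% of all probe sets. The 5 higher ones were Slc2a1, Slc2a3, Hk2, Gyg and Pck2 (3.14% of all probe sets were called higher), and the 7 lower ones were Pfkl, Pkm, Gys1, Gys2, Pygb, Ppp1r3b and Stbd1 (4.21% were called lower). For 10 of these 12 the signal of KO replicate 2 lay between the WT mean and the mean of the other KO arrays; for Gys1 and Pygb it lay beyond the WT mean. The 12 were picked by the fit that leaves out this array, so its place in them is partly fixed by that choice. With WT replicate 1 left out as well, Slc2a3, Pck2, Gys2, Ppp1r3b and Stbd1 still passed. The others of the 12, Slc2a1, Hk2, Pfkl, Pkm, Gyg, Gys1 and Pygb, did not. That setting called 3.93% of all probe sets. In bulk tissue, fewer cells of a type and less RNA per cell cannot be told apart, which holds for every difference given here. A fold change is on the scale of log2(signal + 30.6) and understates the change of genes with low signal. The brightest probe sets of Slc2a3, Aldoa, Tpi1, Pgk1, Ldhb and Gyg carry the suffixes that the array's design gives to probe sets able to match more than 1 transcript, so related sequences may add to their signal.

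Leaving out any array other than KO replicate 2 ended all 3 member calls while keeping their direction. Those fits called 0.0259% to 0.148% of all probe sets, against 1.59% with all arrays. Over those 6 fits the adjusted p ran from 0.0653 to 0.137 for Slc2a3, with differences of 1.26 to 1.595, from 0.0792 to 0.147 for Gys2 (-1.52 to -1.15), and from 0.0615 to 0.141 for Ppp1r3b (-0.72 to -0.55). The calls of Slc2a1, Hk2, Pfkl, Pkm, Gyg, Gys1, Pygb, Stbd1 and Pck2 were made only without KO replicate 2 among the fits that leave out 1 array. With array weights and all 7 arrays, Pkm, Gyg, Stbd1 and Pck2 passed too (adjusted p = 0.0421, 0.0490, 0.0453 and 0.0281), a setting that called 4.86% of all probe sets. All 3 calls were also lost with no filter on low signal (adjusted p = 0.0722 for Slc2a3, 0.0822 for Gys2 and 0.0573 for Ppp1r3b) and with a variance model without a trend (0.0996, 0.0909 and 0.105). These settings called 0.222% and 0.0222% of all probe sets.

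**Figure D1:**
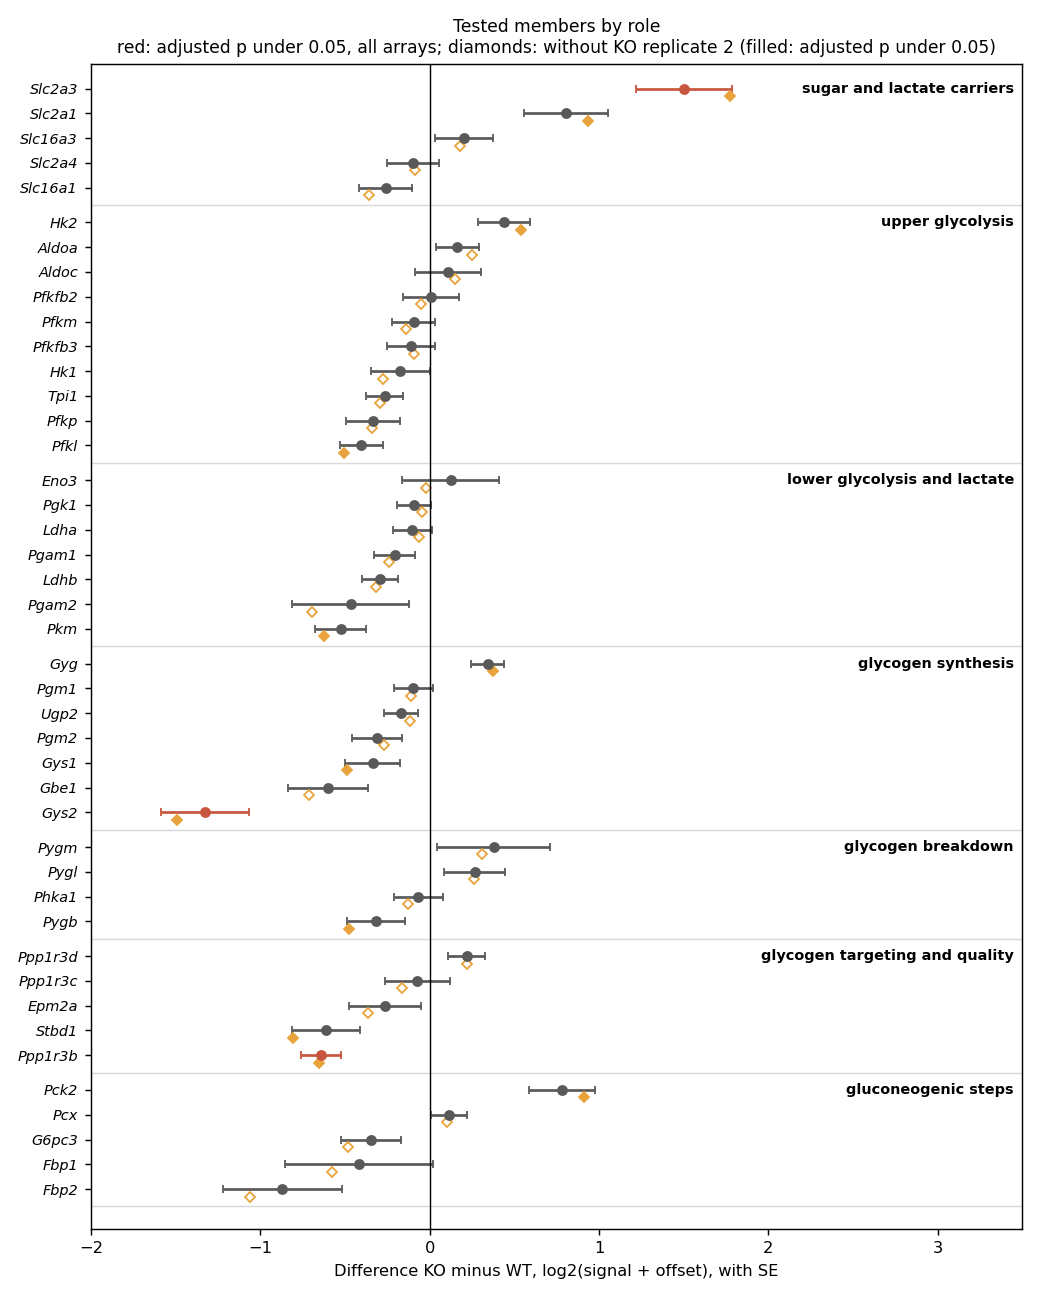
Log2 difference between KO and WT brown fat for the 43 tested members, grouped by role; points with bars are all-array estimates with standard errors, and diamonds leave out KO replicate 2. Slc2a3 lies farthest to the right and Gys2 farthest to the left, at -1.33; red marks the 3 members that passed with all arrays, and filled diamonds the 12 that passed without KO replicate 2.

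Promoter sequences from RefSeq (GRCm38.p6, 250 bases before to 50 bases from each annotated start) were matched by gene for 40 members, with 54 promoters in all. None was matched for Slc2a3, Gys2 and Ppp1r3b, the members called with all arrays, or for Slc2a4. The shares below therefore do not cover these genes. Each was searched on both strands. The letters ACGTG, the core of the hypoxia response element, were found in 57.4% of member promoters and in 19.6% of all 32841 promoters of that length; the other form of the core, GCGTG, was in 53.7% and 32.4%. The E-box CACGTG, which contains ACGTG and forms part of the carbohydrate response element, was in 20.4% and 7.15%, and the GC box GGGCGG in 59.3% and 35.7%. The letters AGAACA, part of the glucocorticoid receptor's element, were in 18.5% and 19.0%, the Krüppel-like box CCACACCC in 7.41% and 3.56%, and TATAAA in 3.70% and 13.6%. Member promoters were richer in G and C, with a median GC content of 61.3% against 52.7%; the motif shares were not adjusted for it.

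Stretches before the start of 4 members are shown because 2 of these genes, Slc2a1 and Hk2, were higher in KO without KO replicate 2 and the other 2, Pkm and Pygb, were lower, and all 4 stretches hold the same core. They were picked among members with ACGTG. Of the other members that passed in that fit and had a promoter, Gyg held ACGTG, and Pck2, Pfkl, Gys1 and Stbd1 did not. The stretches are chr4:119108625-119108744 on the + strand for Slc2a1, chr6:82774455-82774694 on the - strand for Hk2, chr9:59657107-59657226 on the + strand for one of the Pkm promoters, and chr2:150786596-150786795 on the + strand for Pygb. They are written 5′ to 3′ in the direction of the gene, with capitals marking ACGTG, or its reverse complement CACGT where the core lies on the other strand.
Slc2a1: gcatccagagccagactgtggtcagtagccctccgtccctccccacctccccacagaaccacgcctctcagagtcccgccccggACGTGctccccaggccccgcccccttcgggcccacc
Hk2: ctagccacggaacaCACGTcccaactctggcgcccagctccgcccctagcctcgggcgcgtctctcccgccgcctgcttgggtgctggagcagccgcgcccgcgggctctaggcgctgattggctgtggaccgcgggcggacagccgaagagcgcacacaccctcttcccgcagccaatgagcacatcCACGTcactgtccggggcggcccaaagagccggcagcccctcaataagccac
Pkm: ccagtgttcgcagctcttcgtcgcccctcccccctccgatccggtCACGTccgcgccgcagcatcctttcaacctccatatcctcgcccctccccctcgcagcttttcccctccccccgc
Pygb: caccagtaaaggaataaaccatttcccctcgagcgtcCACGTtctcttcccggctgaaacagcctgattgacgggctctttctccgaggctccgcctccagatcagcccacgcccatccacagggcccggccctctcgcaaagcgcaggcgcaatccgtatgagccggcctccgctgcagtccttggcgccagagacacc
The marked core began 36 bases before the start in Slc2a1, 226 and 52 bases before it in Hk2, 75 in Pkm and 163 in Pygb. The other form, GCGTG, was also found in promoters of Slc2a1 and Pygb and is not marked. A match is a description of the letters and not evidence of binding.

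Slc2a3, a high-affinity glucose carrier best known from neurons and blood cells, was the member called higher with all arrays. Its signals were 294, 335 and 251 in WT replicates 1, 3 and 4 and 1476, 491, 886 and 938 in KO replicates 1 to 4. All KO arrays lay above all WT arrays, KO replicate 1 was highest and KO replicate 2 lowest of the KO group. The mean was 948 ± 404 (SD, n = 4) in KO and 294 ± 41.9 (n = 3) in WT, a log2 difference of 1.504 ± 0.28 (SE) or 2.84-fold (limma, adjusted p = 0.0342). Without KO replicate 2 the difference was 1.77, or 3.42-fold (adjusted p = 0.00120). Of the other Slc2a3 probe sets, 2 lay under the filter on low signal, with overlapping arrays. The fainter read 24.6, 19.7 and 27.5 in WT and 100.4, 27.2, 25.7 and 24.4 in KO. The brighter read 34.6, 73.1 and 17.4 in WT and 110.4, 70.3, 102.6 and 98.5 in KO. The remaining one also rose, from 133, 185 and 110.0 to 509.9, 315, 398 and 516, a log2 difference of 1.42 (adjusted p = 0.0217). Like the brightest, it carries a suffix for matching more than 1 transcript, so related sequences may add to both. Markers of macrophages and neutrophils, blood cells in which Slc2a3 is known to be expressed, had summed signals of 13699 to 15939 on the WT arrays and 12707 to 22490 on the KO arrays. With all arrays, 0 of the 12 tested markers passed, 8 lay above 0 and 4 below. Within the list the macrophage markers Adgre1, Cd68 and Mrc1 differed by -0.32, -0.37 and -0.37, while Csf1r, also a macrophage marker, differed by 0.07. The neutrophil markers Camp and Ngp differed by 1.46 and 0.65 (adjusted p = 0.0952 and 0.0954). Lyz2, the lysozyme of both cell types, differed by 0.51 (adjusted p = 0.195), and the arrays of Lyz2, Ngp and Ltf did not overlap, with KO higher. In the fit without KO replicate 2, Lyz2 and Ngp rose by 0.68 and 0.73 (adjusted p = 0.0181 and 0.0322). The faintest marker, Elane, read 25.1 to 137. The part of these cells in the Slc2a3 result was not tested.

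Slc2a1, the carrier of basal glucose uptake in most cells, read 338, 460.3 and 267 in WT and 803, 473, 473 and 869.8 in KO. The arrays did not overlap, but KO replicates 2 and 3 lay just above the highest WT array. The log2 difference was 0.81 ± 0.25, or 1.75-fold, and did not pass (adjusted p = 0.135); without KO replicate 2 it was 0.94 and passed narrowly (adjusted p = 0.0490). The other 2 Slc2a1 probe sets gave 0.58 and 0.54 (adjusted p = 0.165 and 0.241), the latter with overlapping arrays, and neither passed without KO replicate 2 (adjusted p = 0.0942 and 0.0506). Slc2a4, the insulin-responsive carrier of fat and muscle, read 5071, 4464 and 3691 in WT and 5145, 3982, 4040.3 and 3359 in KO, with overlapping arrays and a difference of -0.10 (adjusted p = 0.816). The lactate and pyruvate carriers did not pass either: Slc16a1 differed by -0.26 (adjusted p = 0.447) and Slc16a3, typical of glycolytic cells, by 0.20 (adjusted p = 0.628).

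**Figure D2:**
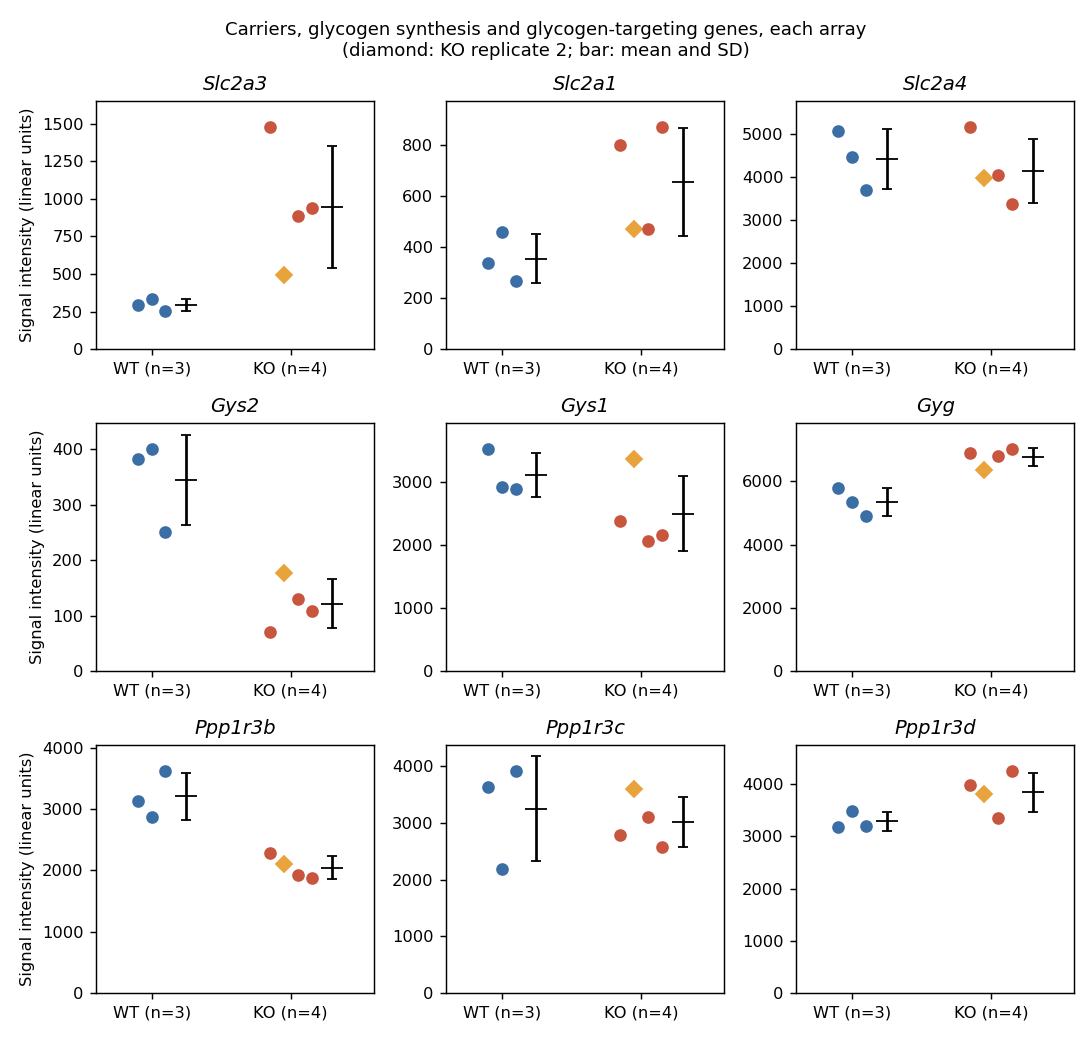
Signal intensity on each array, on a linear axis from 0, for glucose carriers, glycogen synthesis and glycogen-targeting genes; blue points are WT, red points KO, the diamond KO replicate 2, and bars the mean and SD. The Slc2a3, Gys2, Gyg and Ppp1r3b points separate by genotype, whereas those of Slc2a4, Gys1, Ppp1r3c and Ppp1r3d overlap.

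In upper glycolysis, 0 of the 10 tested members passed with all arrays, and the group's median difference was -0.10. Hk2, the insulin-regulated hexokinase of fat and muscle, read 2870.1, 3392 and 2456 in WT and 4594, 3196, 3631 and 4432 in KO. Every KO array except KO replicate 2 lay above the WT arrays; the difference was 0.44 ± 0.15, or 1.36-fold (adjusted p = 0.176), and 0.54 without that array (adjusted p = 0.0471). Hk1, the hexokinase of most tissues, differed by -0.17 (adjusted p = 0.696), with overlapping arrays.

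Phosphofructokinase catalyses the committed step of glycolysis, and its liver form Pfkl read 15958, 13527 and 14938 in WT and 10695, 13739, 9645 and 10931 in KO. KO replicate 2 lay among the WT arrays and the other KO arrays lay below all of them. The difference was -0.40 ± 0.13 (adjusted p = 0.141) with all arrays and -0.50 without KO replicate 2 (adjusted p = 0.0165), when the WT mean was 1.42-fold the KO mean. A further Pfkl probe set showed -0.63 (adjusted p = 0.120) and -0.80 without KO replicate 2 (adjusted p = 0.00978), while the faintest of the 3 tested showed -0.11 (adjusted p = 0.836). The muscle form Pfkm differed by -0.09 (adjusted p = 0.782) and the platelet form Pfkp by -0.33 (adjusted p = 0.330). Pfkfb2 and Pfkfb3 make and degrade a fructose bisphosphate that activates phosphofructokinase and is not its product. They differed by 0.01 (-0.05 without KO replicate 2) and -0.11, and the aldolases Aldoa and Aldoc by 0.16 and 0.11, with adjusted p-values of 0.590 or more.

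Tpi1 converts dihydroxyacetone phosphate, the point where glycerol phosphate enters, to glyceraldehyde phosphate. It read 14128, 12832 and 13207 in WT and 12182, 11854, 9418 and 11289 in KO, so that all KO arrays lay below all WT arrays. The difference was small, -0.26 ± 0.11, and did not pass (adjusted p = 0.261), nor without KO replicate 2 (-0.29, adjusted p = 0.157). The other 2 Tpi1 probe sets gave -0.43 and -0.36 (adjusted p = 0.0811 and 0.155), also without overlap, and both passed without KO replicate 2 (adjusted p = 0.0309 and 0.0390).

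In lower glycolysis and lactate formation, 6 of the 7 tested members lay below 0 and none passed with all arrays; the median was -0.21. Gapdh, which oxidises glyceraldehyde phosphate, was present only as control probe sets. In a fit that kept control probe sets, the 5′, middle and 3′ probe sets gave -0.21, -0.26 and -0.18 (adjusted p = 0.325, 0.196 and 0.388), and the arrays did not overlap for the 5′ and middle ones. Pgk1 and Pgam1, the next kinase and mutase, differed by -0.09 and -0.21 (adjusted p = 0.720 and 0.445).

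Pkm, the pyruvate kinase gene of most tissues outside the liver, had the lowest difference of this group, and its arrays did not overlap. It read 11418, 10245 and 10817 in WT and 8637, 9246, 5834 and 6811 in KO. The difference was -0.53 ± 0.15, a 1.44-fold lower level (adjusted p = 0.115), and it passed without KO replicate 2 (-0.63, adjusted p = 0.0243). It also passed with all 7 arrays when the run of accession numbers (WT replicate 1 and KO replicates 1 and 2 in the first, the other 4 arrays in the second) was a covariate (-0.58, adjusted p = 0.0356), a setting that called 2.34% of all probe sets, and within the second run alone (-0.74, adjusted p = 0.0251). That last fit used only replicates 3 and 4 of each genotype, a part of the same arrays, and called 2.69% of all probe sets. The level is that of the probe set's gene and was not split by splice form.

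Lactate dehydrogenase interconverts pyruvate and lactate. Its Ldha subunit, typical of glycolytic tissue, read 25747, 23996 and 24882 in WT and 23534, 21391, 20617 and 27669 in KO, with overlap and a difference of -0.10 (adjusted p = 0.727). The Ldhb subunit, typical of heart, read 14560.4, 11533 and 11849 in WT and 9712, 10779, 10327 and 10317 in KO. The Ldhb arrays did not overlap, and the difference was -0.29 ± 0.11 (adjusted p = 0.203; 0.122 without KO replicate 2). Pgam2 and Eno3 are the muscle forms of the mutase and enolase and are taken up with the muscle markers.

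Glycogen synthesis had 6 of its 7 tested members below 0 and a median of -0.31. Gys2, the liver-type glycogen synthase, fell most. It read 382, 399.9 and 252 in WT and 71.0, 176, 129.6 and 108 in KO, so that the highest KO array, KO replicate 2, lay below the lowest WT array. The mean was 345 ± 81.1 (n = 3) in WT and 121 ± 43.9 (n = 4) in KO, and the log2 difference was -1.33 ± 0.26, a 2.51-fold lower level (limma, adjusted p = 0.0371). Without KO replicate 2 it was -1.49 (adjusted p = 0.00714). Gys2 had only 1 probe set, and its signals were low, so a further probe set could not be compared.

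Gys1, the synthase of muscle and most other tissues, read 3511, 2916 and 2889 in WT and 2378, 3362, 2060.1 and 2160.1 in KO, where KO replicate 2 lay above the WT mean. The difference was -0.34 ± 0.16 (adjusted p = 0.343) and became -0.49 without that array (adjusted p = 0.0322). Its other probe set gave -0.13 (adjusted p = 0.696), and -0.05 without KO replicate 2 (adjusted p = 0.854), so the 2 probe sets differ in the call.

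Gyg, glycogenin, which primes new glycogen chains, differed in the opposite direction. It read 5776, 5348 and 4896 in WT and 6907, 6359, 6808 and 7012 in KO. All KO arrays lay above all WT arrays, KO replicate 2 included. The difference on the brightest probe set was 0.34 ± 0.10, or 1.27-fold (adjusted p = 0.111), and a further probe set rose by 0.53 ± 0.11 (adjusted p = 0.0451). That further probe set read 3692, 3962 and 3347 in WT and 5509.5, 4596, 5604 and 5483 in KO.

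The enzymes that supply and branch glycogen did not pass. Pgm2, a phosphoglucomutase family member, read 305, 346 and 307 in WT and 245, 231, 262 and 270.2 in KO, without overlap, for a difference of -0.31 ± 0.15 (adjusted p = 0.332). Pgm1, the main phosphoglucomutase, differed by -0.09 (adjusted p = 0.751). Names of the 2 mouse genes have been exchanged in the past, and each was followed here by its gene identifier. Ugp2, which makes UDP-glucose, differed by -0.17 on its brightest probe set (adjusted p = 0.463), and by -0.65 and -0.59 on 2 others (adjusted p = 0.0536 and 0.107), whose arrays did not overlap and which passed without KO replicate 2 (adjusted p = 0.0222 for both). Gbe1, the branching enzyme, read 2026, 1887 and 1506 in WT and 1665, 1484, 1007 and 757 in KO, a difference of -0.60 ± 0.24 (adjusted p = 0.238) with overlapping arrays.

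Of the 4 tested genes of glycogen breakdown, none passed. The phosphorylases release glucose phosphate from glycogen. Pygb, the brain form, read 3026, 2852 and 3430.0 in WT and 2004, 3475, 2323 and 2331 in KO. KO replicate 2 was the highest of all 7 arrays and the other KO arrays lay below all WT arrays, so the difference of -0.32 ± 0.17 (adjusted p = 0.391) became -0.48 without it (adjusted p = 0.0339). Pygl, the liver form, read 2893, 1890.3 and 2158 in WT and 3622, 2771, 2328 and 2421 in KO, a difference of 0.27 ± 0.18 with overlap (adjusted p = 0.515). Pygm, the muscle form, differed by 0.38 ± 0.33 (adjusted p = 0.640), and Phka1, a regulatory subunit of phosphorylase kinase, by -0.07 (adjusted p = 0.875).

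Ppp1r3b, the glycogen-targeting subunit of protein phosphatase best known from liver, fell with the smallest spread of the 3 called members. It read 3132, 2868 and 3619.7 in WT and 2277, 2101, 1930.3 and 1871 in KO. All KO arrays lay below all WT arrays, and KO replicate 2 lay within the range of the other KO arrays. The mean was 3206 ± 382 (n = 3) in WT and 2045 ± 183 (n = 4) in KO, a log2 difference of -0.64 ± 0.12 or a 1.56-fold lower level (adjusted p = 0.0332). Without KO replicate 2 it was -0.65 (adjusted p = 0.0130). The related subunits Ppp1r3c and Ppp1r3d differed by -0.07 and 0.22 (adjusted p = 0.900 and 0.349).

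Stbd1, which binds glycogen and has been tied to its delivery to lysosomes, read 970.4, 798 and 986 in WT and 486, 897, 535 and 509.5 in KO. KO replicate 2 lay among the WT arrays, far from the other 3 KO arrays, which lay below all WT arrays. The difference was -0.61 ± 0.20 (adjusted p = 0.155), and it passed without KO replicate 2 (-0.81, adjusted p = 0.00712). Epm2a, the glycogen phosphatase laforin, differed by -0.26 (adjusted p = 0.599).

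Among gluconeogenic steps, none of the 5 tested members passed with all arrays. Pck2, the mitochondrial phosphoenolpyruvate carboxykinase, read 868, 859 and 659 in WT and 1416, 1048, 1960.2 and 1248 in KO. All KO arrays lay above all WT arrays; the difference was 0.78 ± 0.20, or 1.72-fold (adjusted p = 0.0746), and 0.91 without KO replicate 2 (adjusted p = 0.0148). Its other probe set gave 0.68 (adjusted p = 0.227). Pcx, pyruvate carboxylase, which makes oxaloacetate from pyruvate, differed by 0.11 (adjusted p = 0.666), and G6pc3, the widely expressed glucose phosphatase, by -0.35 (adjusted p = 0.367).

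**Figure D3:**
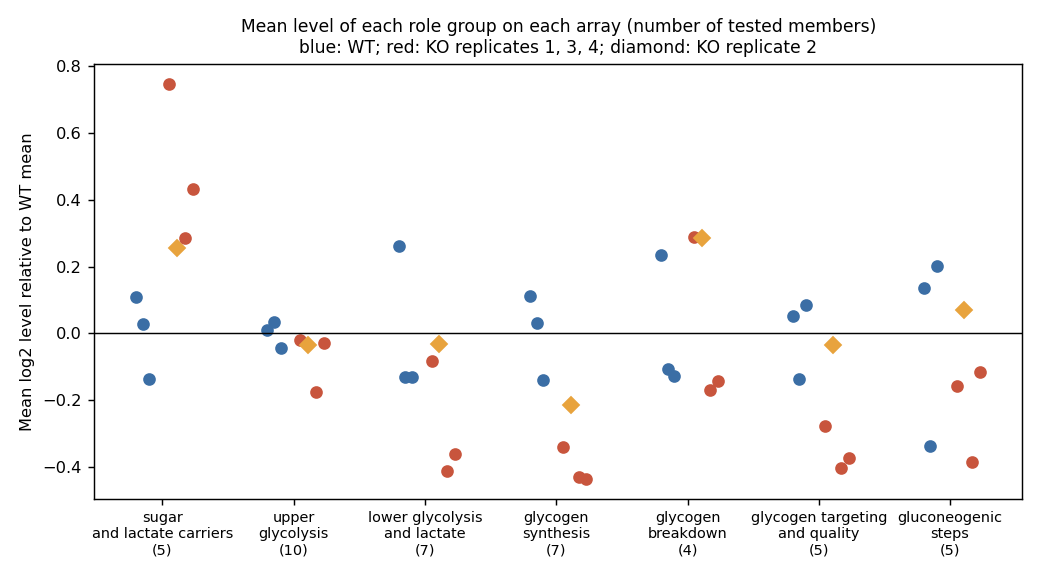
Mean log2 level of the tested members of each role group on each array, relative to the WT mean of that group (blue WT, red KO, diamond KO replicate 2). The KO carriers lie between 0.26 and 0.75 and the KO glycogen synthesis genes between -0.44 and -0.22, outside the WT arrays in both groups, while the other groups overlap.

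The role groups were also averaged on each array, as log2 levels relative to the WT mean. The 5 carriers lay at 0.11, 0.03 and -0.14 in WT and at 0.75, 0.26, 0.29 and 0.43 in KO. The 7 glycogen synthesis genes lay at 0.11, 0.03 and -0.14 in WT and at -0.34, -0.22, -0.43 and -0.44 in KO. These 2 groups did not overlap between genotypes, and each mean holds 1 member that passed on its own. The glycogen-targeting genes lay at 0.05, -0.14 and 0.09 in WT and at -0.28, -0.04, -0.40 and -0.38 in KO, where KO replicate 2 lay within the WT range. No p-value was computed for these means.

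Some members typical of skeletal muscle, Eno3 and Pygm among them, followed another pattern over the arrays. Eno3 read 2259.9, 1226 and 1063 in WT and 2027, 2130.3, 1341 and 1042 in KO, and Pygm read 460.0, 261 and 210.5 in WT and 701, 455, 261 and 278 in KO. Eno3 differed by 0.13 between genotypes, and by -0.02 without KO replicate 2 (adjusted p = 0.880 and 0.981). Both genes were high on WT replicate 1 and on KO replicates 1 and 2, the arrays of the first accession run. The 17 muscle markers summed to 70332, 41292 and 44159 in WT and to 67489, 61318, 39974 and 33620 in KO, with the same 3 arrays high, and 0 of the 16 tested markers passed; Ckm, muscle creatine kinase, read 2492 to 7483. Pgam2 read 998, 416 and 441 in WT and 501, 665, 297 and 264 in KO, a difference of -0.47 ± 0.34 (adjusted p = 0.560). With the run as a covariate it was -0.64 (adjusted p = 0.0534). Pfkm, the muscle phosphofructokinase, did not follow the pattern. It read 2004, 1648 and 2006 in WT and 1905, 1927, 1715 and 1518 in KO.

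Fbp2, the muscle fructose bisphosphatase, read 2452, 882 and 1645 in WT and 1096, 1237, 502 and 670.1 in KO, with overlapping arrays. Unlike Eno3 and Pygm, it was higher on WT replicate 4 than on KO replicates 1 and 2. Its difference was -0.87 ± 0.35 (adjusted p = 0.245), and -1.03 with the run as a covariate (adjusted p = 0.0340). The part of muscle RNA in these values was not tested. Fbp1, the liver form, read 466, 266 and 1088 in WT and 300.3, 538, 204 and 615 in KO. It was highest on WT replicate 4, followed by KO replicates 4 and 2 and WT replicate 1. Alb, the albumin gene of hepatocytes, had the same arrays highest, at 9470.4, 4810.1, 4128 and 2866, and read 411 to 569 on the other 3. Fbp1 differed by -0.42 ± 0.44 between genotypes (adjusted p = 0.707). The part of liver RNA in the values of Fbp1, Gys2 and the other liver-type members was not tested.

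**Figure D4:**
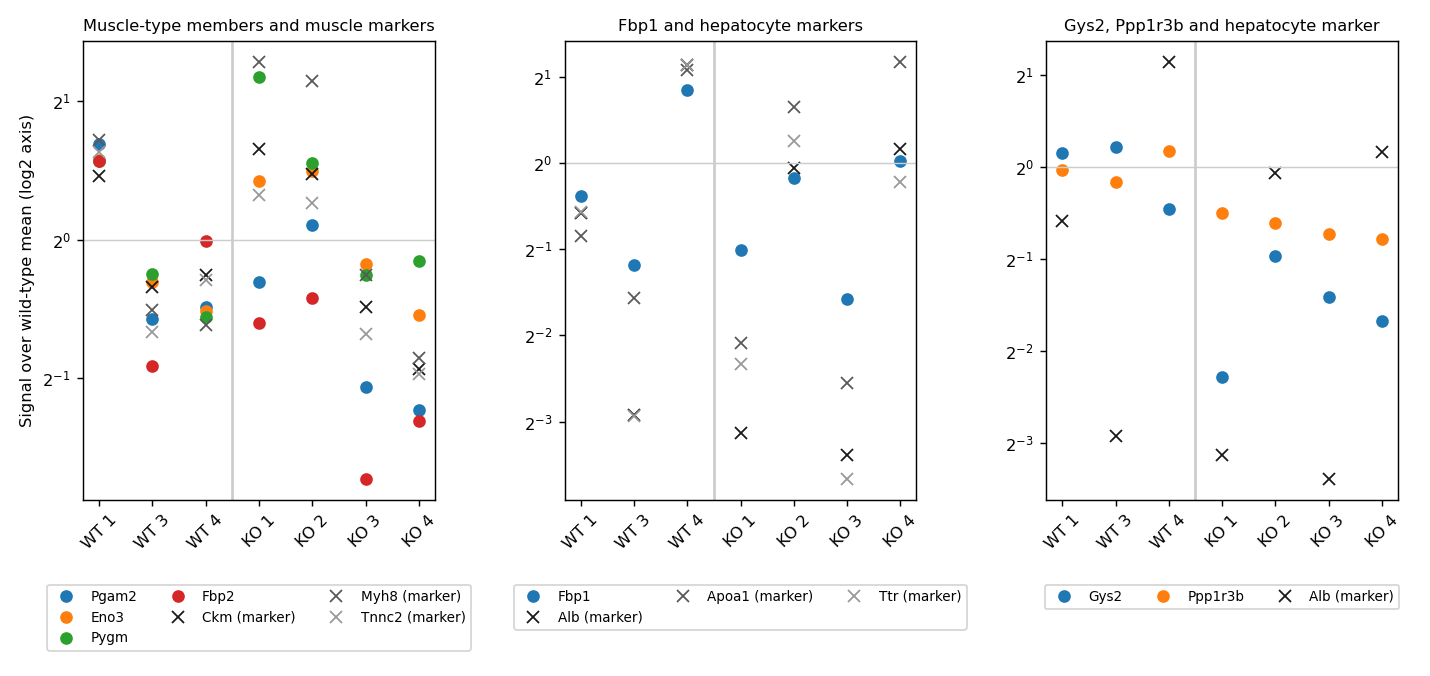
Signal over the WT mean (log2 axis) on each array, for muscle-type members beside muscle markers, for Fbp1 beside hepatocyte markers, and for Gys2 and Ppp1r3b beside Alb. Muscle markers are high on WT replicate 1 and KO replicates 1 and 2, Fbp1 is high where Alb is high, and Gys2 and Ppp1r3b are lower on the KO arrays than on the WT arrays.

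Other genes of sugar metabolism were read in the same way. Of 103 listed, 93 had a probe set and 84 were tested; 0 passed with all arrays (limma), 16, or 19.0%, had an unadjusted p under 0.05 against 16.5% of all probe sets, and the median difference was -0.06. Pck1, the cytosolic carboxykinase, read 14919 ± 1444 (n = 3) in WT and 17906 ± 1550.4 (n = 4) in KO (0.26, adjusted p = 0.256), and Pdk4, which restrains pyruvate entry into the citric acid cycle, differed by 0.25 (adjusted p = 0.449). Further genes with the lowest p of their lists were the carrier Slc2a12 (-0.68, adjusted p = 0.234), the carrier chaperone Bsg (-0.31, adjusted p = 0.260), Pfkfb4 (-0.43, adjusted p = 0.211), Ldhd, which oxidises D-lactate (0.45, adjusted p = 0.192), Pgm2l1 (0.59, adjusted p = 0.157) and the phosphorylase kinase subunit Phkb (-0.44, adjusted p = 0.187).

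The pentose phosphate pathway makes NADPH and ribose phosphate from glucose phosphate. Pgd, one of its NADPH-forming dehydrogenases, read 7859 ± 987 in WT and 5751 ± 894 in KO (-0.45, adjusted p = 0.125), and Rpia, which forms ribose phosphate, differed by -0.39 (adjusted p = 0.162). H6pd, an NADPH-forming dehydrogenase of the endoplasmic reticulum, read 1415, 1069.8 and 1562 in WT and 3734, 1718, 1977 and 1837 in KO, without overlap (0.71, adjusted p = 0.173; 0.83 and 0.0769 without KO replicate 2). Pgls, the lactonase, was also higher in KO without overlap (0.21, adjusted p = 0.308), and Rpia and Prps2 were lower without overlap. H6pd, Pgls and Prps2 were chosen for mention after their values were seen. Without KO replicate 2, 3 of the 10 tested genes of this list fell, against 4.21% of all probe sets called lower, and 0 rose: Pgd by 0.55, Rpia by 0.47 and Prps1, which activates ribose phosphate for nucleotide synthesis, by 0.62 (adjusted p = 0.0175, 0.0434 and 0.00830). Among sugar-related regulators, the hypoxia factor Epas1 read 7064 ± 940 in WT and 4501 ± 827 in KO (-0.66, adjusted p = 0.0613), and Myc, a transcription factor that drives glycolytic genes, read 439 ± 3.73 and 639.8 ± 56.5 (0.51, adjusted p = 0.0746). Both passed without KO replicate 2, at -0.75 and 0.57 (adjusted p = 0.0125 and 0.0231), as did Ugdh, which oxidises UDP-glucose (-0.46, adjusted p = 0.0289); Pmm2 of the mannose branch did not pass with all arrays (-0.35, adjusted p = 0.245).

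Markers of dividing cells, including 3 lower ones of 9 tested (Mcm2, Mcm5 and Rrm2), had summed signals of 6550.3 to 8576 in WT and 3892 to 5638 in KO. Fibroblast markers summed to 71114 to 80789 in WT and 45818 to 74655 in KO, with all 9 below 0 and 0 of 9 passing, and brown adipocyte markers to 154173 to 176494 and 146962 to 191067, with 0 of 10 passing. Nerve and Schwann cell markers summed to 7172 to 9123 in WT and 4866 to 7587 in KO, with all 4 tested below 0 and 0 passing. Without KO replicate 2, the fit in which most member calls were made, more of these markers fell: 6 of 9 of dividing cells, 3 of 9 of fibroblasts (Lum, Dpt and Fap, by 1.17, 0.67 and 1.24, adjusted p = 0.00543, 0.0162 and 0.00595) and 1 of 4 of nerve (Pmp22, by 0.60, adjusted p = 0.0122). Of the brown adipocyte markers, 0 of 10 passed in that fit as well. The part of these cell types in the member differences was not tested.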

How the data were processed

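Trizol-extracted total RNA of 7 samples was biotin-labelled for arrays, per the labels. The authors deposited linear signal intensities for every probe set. The submitters' processing notes list GCOS 1.2; the scaling and the detection calls are not given in the sources used here. Each deposited array had the same mean, 500.003, after trimming 2% at each end, so the scaling was kept.

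Of 45101 probe sets, 64 controls were left out. The probe table gave 1 symbol for 34945 of the others, several for 932 and none for 9160, and older symbols were mapped through gene identifiers (RefSeq, GRCm38.p6). The analysis used log2(signal + 30.6), where 30.6 is the 20th percentile of all values. Probe sets with a mean log2 value under the 40th percentile were dropped without regard to genotype, and 27022 probe sets (13102 genes) remained. The 4 KO and 3 WT arrays were compared with limma 3.58.1 under R 4.3.3 (two-sided moderated test with a mean-variance trend), with no covariate, Benjamini-Hochberg adjustment over all 27022 and a threshold of 0.05. In simulated data with the same numbers of arrays the fit recovered 55% of probe sets changed by 1 on the log2 scale and 90% of those changed by 2, with 5 false calls. The simulated noise was independent between probe sets and arrays, with no outlying array such as KO replicate 2. These rates may therefore not hold for the real arrays.

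Members and lists were chosen with earlier results of these data known. Described with values are members that passed with all arrays or without 1 array, those whose arrays did not overlap, the 2 of each role with the smallest p, and further isoforms for comparison; of other pathway genes, up to 2 per list by smallest p and those that passed. Same-numbered arrays deviated together only weakly (correlations 0.0567, 0.149 and 0.105), and the numbers were treated as names in the main fit. Alternatives covered scaling, offset, filter, variance model, array weights, the mean over probe sets, a replicate block, the accession run, and each array left out. Keeping controls, and leaving out KO replicate 2 with WT replicate 1, were added after seeing the data. Levels of different probe sets were not compared. The level of Gyk is not analysed here.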

Additional observations from a re-analysis of the deposited data

Results flagged for a closer look

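Among 58 groups of KO arrays tested for 1 value far from the rest, 2 stood out, and chance alone gives about 1 in 20. Stbd1 had KO replicate 2 far above the other KO arrays, with a gap of 0.847 of the group's range on the log2 scale. Pgm1 had KO replicate 3 far below the other KO arrays, with a gap of 0.836 of the range, at 4293 against 5164 to 5355.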

How the results depend on the processing

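For 31 genes, 17 of them members, none of 679 values under the alternatives changed direction. These genes were picked for calls, separate arrays or small p in the same data, so a stable direction was likely from the start. Among members outside this set, Eno3 went from 0.13 to -0.02 and Pfkfb2 from 0.01 to -0.05 without KO replicate 2. The count of higher members, 1 with all settings as given, was 0 with no filter, no mean-variance trend or the mean over a gene's probe sets, 2 without KO replicate 2 and WT replicate 1 or at an adjusted p of 0.10, 3 with array weights, and 0 to 5 when 1 array was left out. The count of lower members, 2, was 0 with no filter or no trend, 1 with the filter at the 60th percentile, 4 with array weights or the accession run as a covariate, and 0 to 7 with 1 array left out. Other settings changed the lower calls too. Without KO replicate 2 and WT replicate 1, Stbd1 passed beside Gys2 and Ppp1r3b. With arrays scaled to 1 median, Gys2 passed and Ppp1r3b did not. With the replicate block, which leaves KO replicate 2 without a partner and so drops it, 2 members were higher and 11 lower. Of other pathway genes, 0 were higher, and 1 was with array weights, with the mean over probe sets or at 0.10, 3 were with the replicate block, and 0 to 1 with 1 array left out; 0 were lower, and 1 was with the filter at the 60th percentile, the run as a covariate, the second run alone, without KO replicate 2 and WT replicate 1 or at 0.10, 2 were with array weights, 5 with the replicate block and 0 to 5 with 1 array left out. Over all probe sets, 431 were called, 100 with no filter, 6 with no trend, 235 with arrays scaled to 1 median, 191 with the mean per gene, 1312 with weights, 2183 with the block, 726 in the second run alone, 1061 without both arrays, and 7 to 1986 with 1 array left out, the highest without KO replicate 2. Slc2a3 missed the threshold with the mean over probe sets (adjusted p = 0.0535), Ppp1r3b with arrays scaled to 1 median (0.0702) and Gys2 in the second run alone (0.0651); the cause was not tested. KO and WT arrays both occur in each run.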
